A study of Mus musculus with 160 samples.

Results

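Spp1 encodes osteopontin, a secreted phosphoprotein of the bone matrix, and old marrow stromal cells were divided by whether this gene was listed. Of the 78 old cells, 58 had 600 or more named genes at 1 FPKM or more, and these were the cells described. FPKM is a fragment number scaled by transcript length and by the fragments mapped in the cell, and a gene is called listed in a cell at 1 FPKM or more. Spp1 was listed in 20 of the 58 cells (34.5%, 95% exact Clopper-Pearson interval 22.5 to 48.1, counting error only), called Spp1+, and was under 1 FPKM in the other 38, called Spp1-. The series holds 160 single cells in all, 78 from old and 82 from young C57BL/6J mice. The sample labels give ages of 24 months and 9 weeks, and the protocol gives 2 years and 10 weeks. Both ages were sorted from bone marrow by the same gate, which kept cells positive for CD140a (Pdgfra) and the leptin receptor (Lepr) and negative for CD45, Ter119 and CD31, and no treatment or mutation is given for either. The cells were captured on a microfluidic chip and amplified with SMARTer chemistry. Among young cells 67 passed the same minimum of genes, and Spp1 was listed in 57 of these (85.1%, 74.3 to 92.6). The labels tie no cell to an animal, and each age was therefore taken as 1 sample, no test was made, and every difference describes these cells alone.

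Osteopontin binds integrins through an RGD motif and CD44, and its acidic stretches bind mineral. In bone it is made by osteoblast-lineage cells and osteoclasts and tempers crystal growth. In marrow it lies at the endosteal surface and is known as a restraint on the number of haematopoietic stem cells. Leptin receptor positive stromal cells are the main marrow source of the niche factors Cxcl12 and Kitl, and they contain progenitors of bone and fat cells.

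The Spp1 level was the rule that made the sides, so its values are given as a description. In Spp1+ old cells the lowest, median and highest Spp1 levels were 2.99, 188 and 1993 FPKM, and the quartiles were 81.5 and 394 FPKM. By mean log2(FPKM + 1), Spp1 ranked 23 among all named genes in these cells. In Spp1- old cells Spp1 was at exactly 0 in 22 and between 0 and 1 in 16. The cells just inside the threshold had 2.99 and 5.99 FPKM and those just outside it 0.52 and 0.08, so no cell lay between 0.52 and 2.99. In young Spp1+ cells the lowest, median and highest levels were 2.48, 143 and 1149 FPKM, a range that overlapped the old one almost throughout. An FPKM of 0 can be a failed estimate: in the 58 old cells Actb and B2m were listed in 58, while Gapdh was at exactly 0 in 23 and Col1a1 in 29. Spp1- therefore means not listed at 1 FPKM, and these cells cannot be told apart from cells whose Spp1 RNA was missed.

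**Figure D1:**
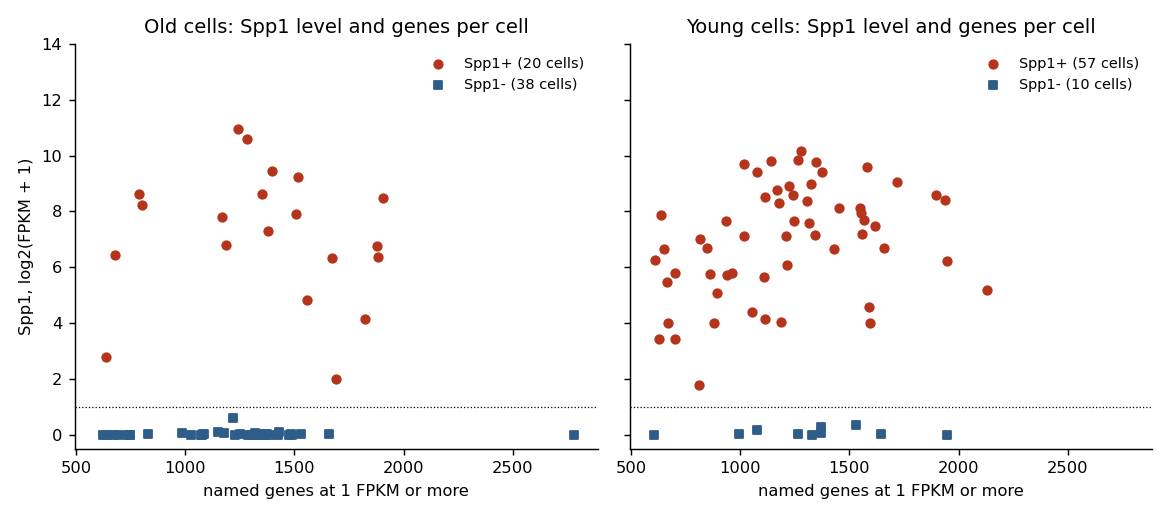
Spp1 level, as log2(FPKM + 1), against the number of named genes at 1 FPKM or more, 1 point a cell, for 58 old cells (left) and 67 young cells (right). The dotted line is the threshold of 1 FPKM; in old cells 20 lie above it, between 2.99 and 1993 FPKM, and 38 lie at 0.52 FPKM or less.

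The sides differed in how many genes were listed per cell. Spp1+ old cells had 637 to 1906 genes with a median of 1389.5, and Spp1- old cells had 622 to 2779 with a median of 1268.5. The cell with 2779 genes stood apart, the next having 1660. Summed FPKM over named genes had a median of 86290 in Spp1+ and 72013 in Spp1- old cells, and 2 cells of each side exceeded 3 times the median of the old cells. The sides differed in how far: the 2 Spp1+ cells had 7384325 and 2911306 FPKM over 680 and 804 genes. The 2 Spp1- cells had 302241 and 230049 FPKM over 748 and 622 genes. In young cells the order of gene numbers was the other way, with medians of 1211 in Spp1+ and 1350 in Spp1- cells. A cell with more listed genes has more chances to list any 1 gene, and values with gene number as a covariate are given with the counts over all genes.

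Both sides carried the RNA of the sorted stromal cell. Cxcl12, the chemokine that retains haematopoietic stem cells, was listed in 20 of 20 Spp1+ and 37 of 38 Spp1- old cells, and its medians were 859 and 849 FPKM. The leptin receptor gene Lepr was listed in 19 and 36 cells, at medians of 75.1 and 65.9 FPKM. The fat hormone Adipoq, which these stromal cells also express, was listed in 19 and 36, with medians of 208 and 211 FPKM. Kitl, the ligand of the stem cell receptor Kit, was listed in 19 and 34 cells. Pdgfra, the other gate gene, was listed in only 9 Spp1+ and 19 Spp1- old cells. The ranges of each of these genes overlapped nearly completely between the sides.

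Defining markers of other cells were listed in no cell or in few cells of each side. No old cell listed 3 or more members of the macrophage and osteoclast, haematopoietic, erythroid, megakaryocyte, endothelial, chondrocyte, pericyte or Schwann cell lists. Ptprc (CD45), Pecam1 (CD31), Cdh5, Csf1r, Lyz2, Tyrobp, Acp5 and Dcstamp were listed in 0 of 20 Spp1+ and 0 of 38 Spp1- cells, where a limit of 3 cells allows shares of up to 15% and 7.89% and the exact intervals end at 16.8% and 9.25%. Single members of these lists were listed more often: Fcer1g, an Fc receptor chain of myeloid cells, in 4 and 3 cells, the cartilage factor Sox9 in 4 and 2, and S100b, a calcium-binding protein of glia, in 9 and 15. The macrophage and osteoclast list, whose cells can also make osteopontin, had 14 members in the table and at most 1 listed in any cell of either side. Its summed level lay between 0 and 179 FPKM in Spp1+ and between 0 and 761 FPKM in Spp1- cells, with a median of 0 in both. Of the pericyte and smooth muscle list, Mylk, a myosin light chain kinase, was listed in 17 Spp1+ and 23 Spp1- cells and set the list's summed level, with medians of 67 and 8.21 FPKM, while Acta2, Myh11 and Rgs5 were listed in 0. Xist was listed in 17 of 20 Spp1+ and 32 of 38 Spp1- old cells and in 0 of 67 young cells, while Y-linked genes were listed in 0 old and 31 young cells, so age and sex cannot be told apart when old and young are set side by side.

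Osteopontin and its neighbour bone sialoprotein (Ibsp) belong to a family of acidic, RGD-bearing matrix proteins whose genes lie together on mouse chromosome 5, with Mepe the 1 protein-coding gene between this pair in RefSeq. Their upstream sequences are shown because Ibsp was listed in most cells of both sides while Spp1 was not. Each covers the 250 bases before the start of the gene in RefSeq (build GRCm38.p6, plus strand). The Spp1 stretch lies at chr5:104434861-104435110 and is the first of 2 entries, and the Ibsp stretch at chr5:104299037-104299286. Capitals mark the Runx core ACCACA, the motif of the bone factor Runx2 and its relatives, and the CCAAT box (ATTGG on this strand), searched on both strands.
Spp1: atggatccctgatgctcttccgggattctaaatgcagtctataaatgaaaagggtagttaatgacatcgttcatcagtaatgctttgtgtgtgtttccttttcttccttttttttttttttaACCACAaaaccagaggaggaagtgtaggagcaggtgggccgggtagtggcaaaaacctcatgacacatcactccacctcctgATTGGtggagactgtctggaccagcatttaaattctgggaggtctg
Ibsp: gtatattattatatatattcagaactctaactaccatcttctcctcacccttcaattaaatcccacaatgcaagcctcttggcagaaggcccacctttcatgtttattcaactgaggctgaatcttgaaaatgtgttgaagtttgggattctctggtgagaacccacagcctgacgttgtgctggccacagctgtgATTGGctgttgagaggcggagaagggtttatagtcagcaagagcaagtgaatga
The Spp1 stretch held 1 Runx core, at position 123 from its 5′ end, and 1 CCAAT box at position 205, and the Ibsp stretch held 0 Runx cores and 1 CCAAT box at position 197. Of 32851 mouse stretches of this length, 14% held the Runx core and 33.8% the CCAAT box. These matches describe letters and are not shown to be sites.

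Ibsp had 0.0192, 237 and 884 FPKM (lowest, median, highest) in Spp1+ old cells, against 0.0856, 359 and 1956 FPKM in Spp1- old cells. The gene was listed in 17 of 20 (85%, interval 62.1 to 96.8) and 36 of 38 (94.7%, 82.3 to 99.4). Its mean log2(FPKM + 1) was 6.81 ± 3.23 (SD over cells) and 7.92 ± 2.30, a difference of -1.11. Ibsp was thus not scarcer where Spp1 was not listed. In young cells it was listed in 66 of 67, with a median of 554 FPKM.

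Differences across all genes were read by a rule of size. A gene passed when its share of listed cells differed by 25 percentage points or more and its mean log2(FPKM + 1) by 1 or more in the same direction, among genes listed in at least 10% of the 58 cells. Of 3957 genes tested, 100 passed as higher in Spp1+ cells (2.53%) and 15 as lower (0.379%). These shares are the background of each count of list members given below, and in short lists a few calls say little about the list. The median difference of all tested genes was 0.13 on the log2(FPKM + 1) scale, with quartiles of -0.20 and 0.50, and 60.2% of genes lay above 0, the same direction as the gene number per cell. With the FPKM of every cell rescaled to a sum of 1000000, 74 genes passed as higher and 40 as lower, and the median difference was 0.05. With the gene number of the cell as a covariate, an alternative chosen after seeing the data, 59 genes passed as higher, all among the 100, and 30 as lower. Of the higher genes described here, Col8a1, Ecm1, Ghr, Mmp13, Ndufa4, Rpl3, Sat1, Sepp1, Sepw1, Sfrp4, Tpm4 and Tra2b did not pass with that covariate, and the 15 lower genes did. Prdx1, not among those 15, passed as lower with it. With Spp1 above 0 set against 0, 22 of the 100 higher and 0 of the 15 lower genes still passed, with no minimum of genes per cell 41 and 1, and with a pseudocount of 10, 15 and 1. The imbalance towards higher genes was thus smaller after rescaling and with the covariate, and its cause was not tested.

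The gene past the rule with the largest difference was Srsf5, an SR protein that acts in splicing. It had 0, 89.3 and 422 FPKM (lowest, median, highest) in Spp1+ old cells, against 0, 0.0323 and 272 FPKM in Spp1- old cells. In all, 18 of 20 (90.0%, 68.3 to 98.8) and 15 of 38 cells (39.5%, 24.0 to 56.6) listed it. These intervals did not overlap, but Srsf5 was picked for its difference in these same cells, so that is no test. The mean log2 values were 5.45 ± 2.75 and 1.70 ± 2.37, a difference of 3.75 that was 3.37 with gene number as a covariate. Young cells lay between the old sides, with Srsf5 listed in 38 of 67. Tra2b, another splicing regulator, was listed in 17 and 22 cells, at medians of 48.3 and 2.78 FPKM, and Clk1, a kinase that phosphorylates SR proteins, in 18 and 20, a difference of 1.34 that was -0.70 when cells with Spp1 above 0 were set against cells at 0. Rbm39, also a splicing factor, lay the other way, listed in 12 and 33 cells with a difference of -1.20. Rbm39 passed in 6 of 16 other settings, and its direction turned with no minimum of genes per cell (0.31) and in cells at or above the median gene number (0.34).

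Vim, the intermediate filament vimentin of mesenchymal cells, had 0.0195, 96.6 and 485 FPKM in Spp1+ old cells, against 0, 5.09 and 288 FPKM in Spp1- old cells. It was listed in 19 of 20 (95.0%, 75.1 to 99.9) and 22 of 38 (57.9%, 40.8 to 73.7), and its means differed by 2.80. All but 1 of the Spp1+ cells listed Vim, while the Spp1- cells spread from 0 into the same high range. Young cells were near the Spp1- side, with a median of 3.64 FPKM. Tpm4, a tropomyosin that binds actin filaments, was listed in 12 and 13 cells, a difference of 1.48. These were the 2 of 19 tested cytoskeleton genes past the rule, beside 2.53% of all genes, and the median of that list was 0.13, the same as that of all genes.

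Btg1 and Gas1 of the cell cycle inhibitor and quiescence list passed as higher. Btg1, an antiproliferative factor, had 0, 73.7 and 322 FPKM in Spp1+ old cells, against 0, 13.2 and 297 FPKM in Spp1- old cells, and was listed in 19 and 25 cells. Gas1, a membrane protein first known from growth-arrested fibroblasts, was listed in 10 of 20 and 5 of 38, a difference of 1.26. They were 2 of 10 tested genes of the list, beside 2.53% of all genes, and the list median was 0.20 with 5 of 10 above 0. Its lowest member was the cyclin Ccnd3 at -0.71, which did not pass. Mki67 and Top2a, which mark dividing cells, were listed in 0 cells of either side, but other proliferation genes were listed in some cells. Of 14 such genes 2 were tested, Pcna (0.40) and Tyms (-0.10), and neither passed. At least 3 of the 14 were listed together in 1 Spp1+ and 0 Spp1- old cells. Sat1, which degrades polyamines, was listed in 11 and 10 cells with a difference of 2.39. Young cells listed Btg1 in 54 of 67, with a median of 48.2 FPKM, between the old sides.

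Among secreted signals, Fgf7, a growth factor that stromal cells send to epithelium, had 0, 32.4 and 410 FPKM in Spp1+ old cells, against 0, 0.206 and 167 FPKM in Spp1- old cells. Fgf7 was listed in 15 and 17 cells, a difference of 2.14, and in 28 of 67 young cells. Dusp6, a phosphatase that FGF signalling induces as feedback on ERK, was listed in 9 and 5, a difference of 1.41. They were 2 of 14 tested genes of PDGF, FGF and EGF signalling, beside 2.53% of all genes, with a list median of 0.28. Sfrp4, a secreted Wnt antagonist, was listed in 16 and 20 cells with medians of 32.2 and 2.64 FPKM, and was the 1 of 8 tested Wnt genes past the rule. Ghr, the growth hormone receptor, was listed in 15 and 18 cells, a difference of 2.00. Tgfbr3, the co-receptor betaglycan, differed by 2.11 but was listed in 19 and 29 cells, 18.7 points apart, so it did not pass. None of the 7 tested TGF-beta genes or 14 BMP genes passed, with list medians of 0.60 and 0.36.

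S100a6, a calcium-binding protein of fibroblasts and other mesenchymal cells, had 0, 25.7 and 303 FPKM in Spp1+ old cells, against 0, 0 and 588 FPKM in Spp1- old cells. S100a6 was listed in 13 and 12 cells, a difference of 2.13, and in 12 of 67 young cells. Fcf1, a nucleolar protein of small ribosomal subunit assembly, was listed in 10 of 20 and 5 of 38, a difference of 2.17, and it passed the rule under each of the 16 other settings in which single genes were recomputed. Ssr1, part of the translocon-associated complex of the endoplasmic reticulum, was listed in 16 and 19 cells, a difference of 2.09, and was the 1 of 24 tested endoplasmic reticulum folding genes past the rule. The list median was 0.14, with 14 of 24 genes above 0 and the lowest, Manf, at -0.77.

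**Figure D2:**
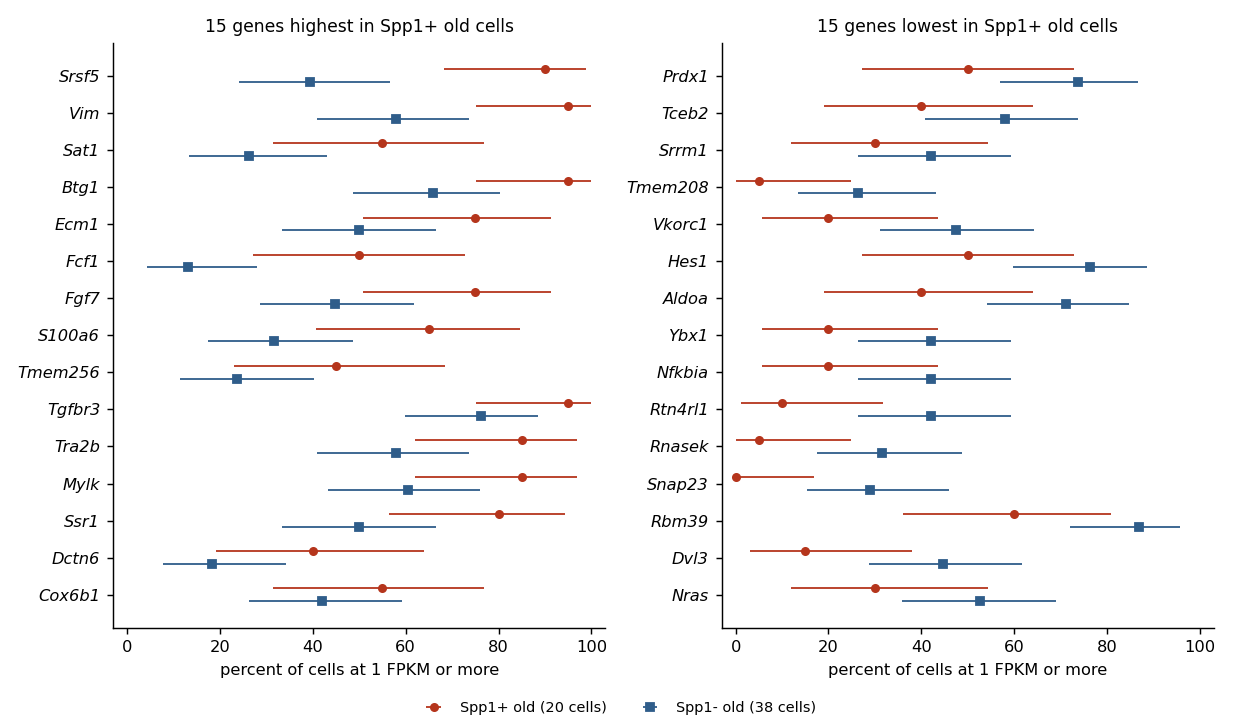
Percent of Spp1+ (20, red circles) and Spp1- (38, blue squares) old cells that listed each gene at 1 FPKM or more, with 95% Clopper-Pearson intervals, for the 15 genes of highest and the 15 of lowest difference of mean log2(FPKM + 1) under the naming rule. The intervals of Srsf5 (90.0% and 39.5%) and Vim (95.0% and 57.9%) do not overlap, while those of Btg1 (95.0% and 65.8%) do. The genes were picked by their difference in these cells, so the intervals are no test.

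In some genes of large difference 1 cell held most of the FPKM. Cox6b1, a subunit of cytochrome c oxidase, differed by 2.06, yet 1 Spp1+ cell at 822839 FPKM held 99.5% of its FPKM over the 58 cells, and it was listed in 11 and 16 cells. Without the cells of very high summed FPKM its difference was 1.34. Tmem256, a small membrane protein, differed by 2.11, with 97.6% of its FPKM in 1 Spp1+ cell, and by 1.51 without those cells. The dynactin subunit Dctn6 differed by 2.06 with 66.3% in 1 cell, and by 2.33 without those cells. None of these passed the rule, because their shares of listed cells lay less than 25 points apart.

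Osteopontin receptors were mostly not listed. Itgav, the alpha chain of the vitronectin receptor that binds the RGD motif of osteopontin, had 0, 6.94 and 432 FPKM in Spp1+ old cells, against 0, 0.816 and 125 FPKM in Spp1- old cells. It was listed in 16 of 20 (80%, 56.3 to 94.3) and 18 of 38 (47.4%, 31 to 64.2), and the difference of 1.15 passed the rule. Itgav passed in 9 of 16 other settings. The share of Spp1- old cells was close to that of young cells, of which 32 of 67 listed Itgav (47.8%). Its partner Itgb1 was listed in 13 and 21 cells (0.46) and Itgb5 in 3 and 8 (-0.19), and neither passed. Cd44 was listed in 1 Spp1+ and 3 Spp1- cells, Itgb3 in 0 and 1, Itga5 in 1 and 1, and Itga8 in 1 and 2. Itga4, Itga9 and Itgb6 were listed in 0 cells of both sides. Thus 3 of 10 receptor genes were tested and 1 passed.

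Genes of bone matrix and mineralization lay at the background as a group. Of 24 such genes 11 were tested, 1 passed as higher and none as lower, and the list median was 0.13, equal to that of all genes. The 1 gene was Mmp13, the collagenase of bone and cartilage remodelling, with 0, 20.5 and 827 FPKM in Spp1+ old cells, against 0, 0.0225 and 140 FPKM in Spp1- old cells. It was listed in 12 and 13 cells, a difference of 1.85, and passed in 11 of 16 other settings. Mgp, which inhibits calcification, was listed in 18 and 35 cells with medians of 521 and 319 FPKM and a difference of 0.98. Sparc (osteonectin) was listed in 19 and 33 cells, with a difference of -0.02. Phex, an endopeptidase of osteoblasts and osteocytes that controls phosphate, was listed in 12 and 22 cells, with a difference of 0.25.

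The remaining bone genes were rarely listed on either side. Alpl, the alkaline phosphatase of mineralizing cells, was listed in 3 Spp1+ and 1 Spp1- cells, the osteoblast factor Sp7 in 1 and 2, and Bglap (osteocalcin) in 1 and 0. Dmp1, Mepe, Sost, Fgf23, Phospho1, Ifitm5 and Bmp3 were listed in 0 of both. At least 3 mature osteoblast and osteocyte markers were listed together in 1 cell of each side. Among collagens, Col1a2 was listed in 19 and 37 cells with a difference of -0.55, and Col8a1, a short-chain collagen, in 15 and 19 with a difference of 1.33, the 1 of 12 tested collagen chains past the rule. Col8a1 passed at exactly 25 points. Ecm1, a secreted matrix protein that likewise passed at exactly 25 points, was listed in 15 and 19 cells, with a difference of 2.26.

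Among transcription factors, Hes1 and Nfib were past the rule, in opposite directions. Runx1, a Runx family member, was listed in 16 and 36 cells, with a difference of -0.35. Nfib, a nuclear factor I family member, was listed in 15 and 17 cells, a difference of 1.22, and was the 1 of 9 tested marrow stromal factors past the rule. Ebf3, which keeps marrow stromal cells from ossifying the marrow, was listed in 16 and 29, with a difference of -0.33. Hes1, the repressor induced by Notch, lay lower: it had 0, 1.27 and 78.6 FPKM in Spp1+ old cells, against 0, 7.42 and 114 FPKM in Spp1- old cells. It was listed in 10 of 20 (50%, 27.2 to 72.8) and 29 of 38 (76.3%, 59.8 to 88.6), a difference of -1.43, and these intervals overlapped. Hes1 passed in 7 of 16 other settings and Nfib in 10 of 16.

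**Figure D3:**
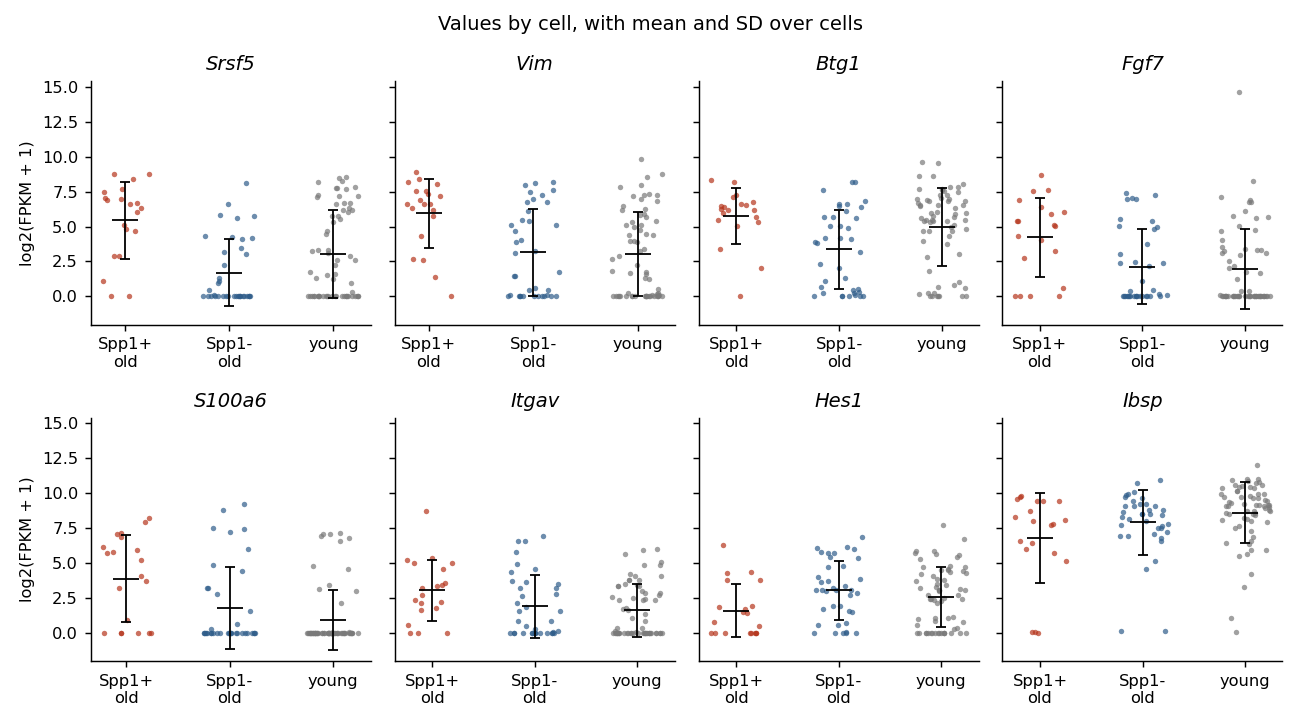
Level of 8 genes as log2(FPKM + 1), 1 point a cell, in Spp1+ old (20), Spp1- old (38) and young cells (67), with the mean and SD over cells drawn as black bars. Srsf5 and Vim are near 0 in few Spp1+ cells (means of 5.45 and 5.96) and in many Spp1- cells (1.70 and 3.15), while Hes1 and Ibsp have lower means on the Spp1+ side.

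Signalling and stress genes gave few calls. Fos, an immediate early gene that dissociation of tissue also induces, was listed in 20 of 20 Spp1+ and 27 of 38 Spp1- old cells, with medians of 101 and 59.4 FPKM and a difference of 1.76. It was the 1 of 16 tested immediate early genes past the rule. The list median was 0.57, beside 0.13 for all genes, and 12 of 16 lay above 0. That median ran from -0.10 to 0.83 over the other settings. Jun, the partner of Fos, was the lowest member, listed in 14 and 28 cells with a difference of -0.70. Its difference ran from -2.64 to 0.83 over the other settings, so its direction was not stable. Nfkbiz, an NF-kB co-regulator, was listed in 12 of 20 (60%, 36.1 to 80.9) and 7 of 38 (18.4%, 7.74 to 34.3), a difference of 1.39. The NF-kB inhibitor Nfkbia was listed in 4 and 16 cells, with a difference of -1.32 that missed the rule at 22.1 points. Sepp1, the selenium carrier, and Sepw1, another selenoprotein, were each listed in 17 and 22 cells, with differences of 1.55 and 1.21. They were 2 of 22 tested antioxidant genes, beside 2.53% of all genes. Prdx1, a peroxide-reducing enzyme, was listed in 10 and 28 cells, with a difference of -1.54 that did not pass. With gene number as a covariate its difference was -1.80 and passed as lower. None of 11 tested p53 target genes passed, and their median was 0.29.

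Among lists with 6 or more tested genes, cell adhesion and junction had the highest median, 0.92 over 9 tested genes, yet none of the 9 passed the rule. Gja1, the gap junction protein connexin 43, had 27.5, 390 and 1161 FPKM in Spp1+ old cells, against 0.0674, 155 and 1319 FPKM in Spp1- old cells. It was listed in 20 and 36 cells, so a difference of 1.59 in mean level came with a difference of 5.26 points in share. Vcam1, the adhesion molecule through which blood cells bind stroma, was listed in 18 and 29 cells, with a difference of 1.31. Cdh11, a cadherin of the osteoblast lineage, was listed in 18 and 31, with a difference of 0.91. Cdh2 lay the other way, with a difference of -0.55. The list median stayed above 0 under each setting, between 0.41 and 1.67. That was not particular to this list. The TGF-beta (0.21 to 1.26), BMP (0.17 to 0.60) and class I antigen presentation (0.35 to 0.83) medians stayed above 0 too. So did the median of all genes, while some other lists crossed 0.

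The energy and ribosome lists lay near the background. Of 50 tested oxidative phosphorylation genes 2 passed as higher, Ndufa4 (15 and 19 cells, 1.90) and Atp5g1 (11 and 8 cells, 1.61, and -0.25 among cells below the median gene number), and none as lower, with a list median of 0.25. Of 55 cytosolic ribosomal protein genes, Rpl3 passed as higher (14 and 16 cells, 1.34) and Rps15 as lower, with a list median of 0.15. With gene number as a covariate these medians were -0.03 and -0.17, beside 0.05 for all genes. Rps15 had 0, 0 and 129 FPKM in Spp1+ old cells, against 0, 64.2 and 745 FPKM in Spp1- old cells, and was listed in 6 of 20 (30.0%, 11.9 to 54.3) and 23 of 38 (60.5%, 43.4 to 76). Its difference of -2.89 was the lowest of all tested genes past the rule. Ribosomal protein genes have processed copies with which their reads can be shared, so the value of Rps15 is uncertain.

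**Figure D4:**
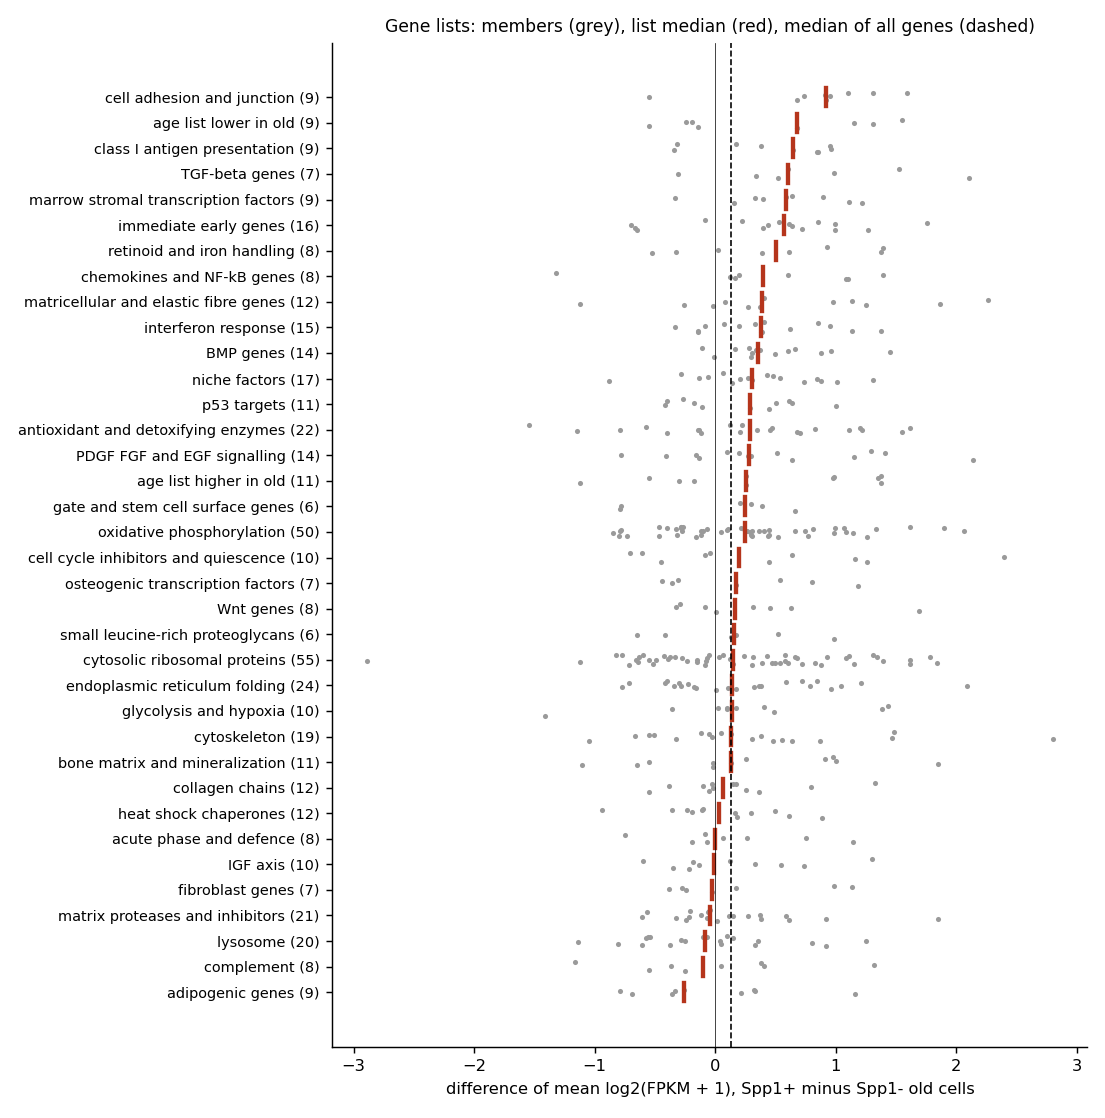
Difference of mean log2(FPKM + 1), Spp1+ minus Spp1- old cells, for the tested members (grey points) of each gene list with 6 or more, with the list median in red and the number tested in brackets. The dashed line is the median of all 3957 genes, 0.13; list medians run from -0.26 (adipogenic genes) to 0.92 (cell adhesion and junction).

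The 15 genes past the rule as lower were Rps15, Gm10471, Vkorc1, Hes1, Aldoa, Rtn4rl1, Rnasek, Snap23, Rbm39, Dvl3, Cfb, Ctsb, Iqgap1, Pabpc1 and Gfpt1. Aldoa, a glycolytic aldolase, was listed in 8 of 20 (40%, 19.1 to 63.9) and 27 of 38 (71.1%, 54.1 to 84.6), a difference of -1.41. Cfb, complement factor B, was listed in 3 and 17 cells, a difference of -1.16, and Ctsb, the lysosomal protease cathepsin B, in 10 and 30, a difference of -1.14. They were the 1 of 8 tested complement genes and the 1 of 20 tested lysosome genes past the rule, with list medians of -0.10 and -0.09. Vkorc1, the vitamin K epoxide reductase needed to activate the matrix Gla protein Mgp, was listed in 4 and 18 cells, a difference of -1.43. Dvl3, a Wnt signal transducer, was listed in 3 and 17 cells, a difference of -1.19. Snap23, a vesicle fusion protein, was listed in 0 of 20 Spp1+ cells (exact interval up to 16.8%, and 15% by the limit of 3 cells) and in 11 of 38 Spp1- cells. In Snap23 1 cell held 76.2% of the FPKM.

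Genes that separate the ages were set beside the sides. These lists were chosen on the same cells, so they are not independent evidence of a direction, and they serve to place each side. Of the 10 genes in the table that are lower in old cells (Spp1 left out), Spp1+ old cells listed a median of 5.5, Spp1- old cells 4 and young cells 8. Of the 11 genes that are higher in old cells, the medians were 8, 8 and 4. Spp1+ old cells thus listed as many of the genes higher in old cells as Spp1- old cells did.

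Among single age genes, Sepp1 was listed in 85% of Spp1+ old, 57.9% of Spp1- old and 97.0% of young cells, and was the 1 gene of either age list past the rule between the old sides. Vcam1 was listed in 90.0%, 76.3% and 97.0%. Cldn10, a tight junction protein, was listed in 25.0%, 7.89% and 61.2%, and the scavenger receptor Scara5 in 0 of 20, 3 of 38 and 33 of 67 cells. The row shared by the protease inhibitor genes Serpina3m and Serpina3n, whose reads the table does not separate, was listed in 3, 1 and 45 cells. Lbp, which binds bacterial lipopolysaccharide, was listed in 20.0%, 31.6% and 70.1%. The growth factor Igf1, on neither list, was listed in 55%, 44.7% and 77.6%. Both old sides lay under young cells in each of these genes.

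On the other side, Aldh1a2, which makes retinoic acid, was listed in 90.0% of Spp1+ old, 68.4% of Spp1- old and 22.4% of young cells. Complement C3 was listed in 70.0%, 78.9% and 23.9%, and Phex in 60%, 57.9% and 20.9%. The nuclear body protein gene Sp100 was listed in 50%, 34.2% and 1.49%, and the host RNA Snhg11 in 60%, 39.5% and 2.99%. Efemp1, an elastic fibre protein, was listed in 45%, 63.2% and 11.9%. Both old sides lay above young cells in each of these genes, whether or not Spp1 was listed.

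**Figure D5:**
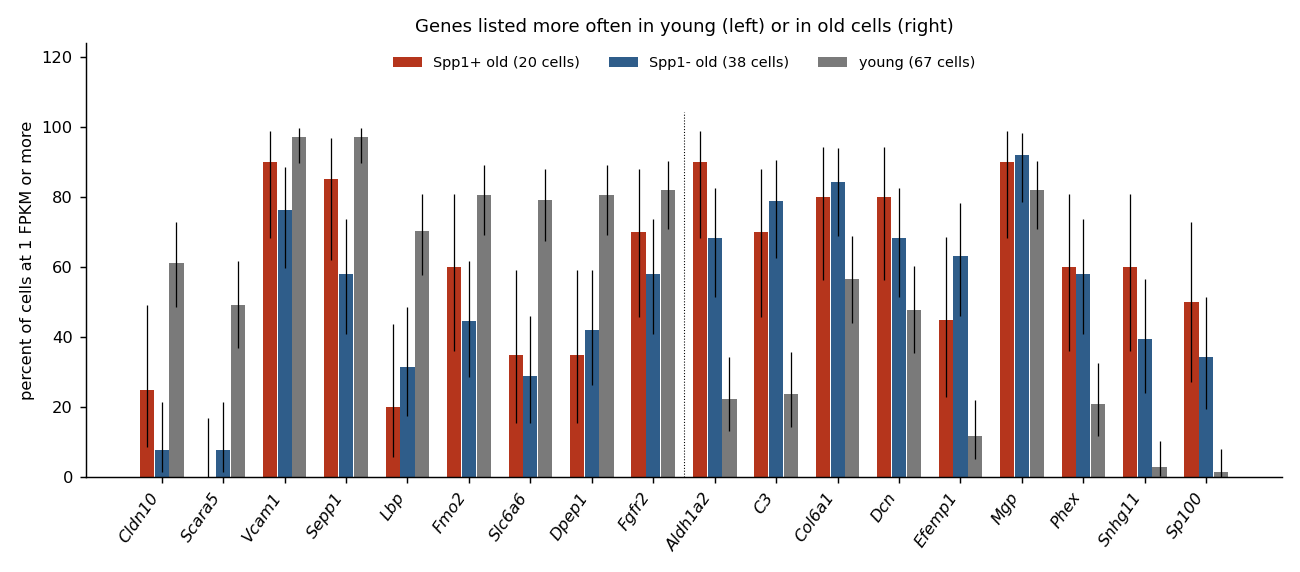
Percent of cells that listed each gene at 1 FPKM or more in Spp1+ old (20, red), Spp1- old (38, blue) and young cells (67, grey), with 95% Clopper-Pearson intervals; genes listed more often in young cells stand left of the dotted line. Aldh1a2 (90.0%, 68.4% and 22.4%) and Cldn10 (25.0%, 7.89% and 61.2%) show both old sides on the same side of young cells.

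Young cells gave a separate split by the same rule, with 57 Spp1+ and only 10 Spp1- cells. Of 3664 genes tested, 37 passed as higher in Spp1+ young cells (1.01%) and 145 as lower (3.96%), the reverse of the imbalance in old cells. The median difference of all genes was -0.09, with 43.8% above 0. With gene number as a covariate, 61 young genes passed as higher and 113 as lower. At each age the side with the higher median gene number was also the side of fewer cells. Gene number and side size therefore cannot be told apart here, and neither was tested as a cause. The genes past the rule as higher at both ages were Atp5g1, Sec22b and Ssh2, 3.0% of the old list and 8.11% of the young list. Those past it as lower at both were Rps15 and Rtn4rl1, 13.3% of the old list and 1.38% of the young list. A further 7 rows that were higher in old Spp1+ cells were lower in young Spp1+ cells, among them Crip1, Grina, Man1a and Trim33, which were 7.0% of the old list and 4.83% of the young lower list.

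Of the 100 higher genes, 91 were tested in young cells and 3 of these passed as higher there, beside 1.01% of all genes. In young cells their median difference was 0.02 and 48 lay above 0. Over the 2997 genes tested at both ages, the young median was -0.12 and 42.7% lay above 0. Of the 15 lower genes, 14 were tested in young cells and 2 passed as lower, beside 3.96% of all genes. Their median difference was -0.36, and 10 lay below 0, beside 57.3% of all genes tested at both ages. Srsf5 was listed in 35 of 57 Spp1+ and 3 of 10 Spp1- young cells, a difference of 0.95 that did not pass. Vim was listed in 35 of 57 and 5 of 10, a difference of 0.41, and Btg1 in 46 of 57 and 8 of 10, a difference of -0.07. Rps15 was listed in 30 of 57 and 8 of 10, a difference of -2.17, and Atp5g1 in 18 of 57 and 0 of 10, a difference of 1.65.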

How the data were processed

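RNA of single sorted marrow stromal cells was measured by microfluidic capture (Fluidigm C1) and SMARTer amplification. Per the labels' protocols, 96 wells were examined per age and microscopy left 79 old and 83 young wells, so no doublet caller was run. The values are FPKM as deposited by the authors, with genes in rows and cells in columns. Cufflinks 2.1.1 and the build mm9 are named per the submitters' processing notes. Of read numbers, filters and shared reads the sources used here say nothing. Without counts a count model cannot be run, and depth is unknown.

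The table had 31199 rows. The 7751 without a gene name were dropped, and they held a median of 43.4% of the FPKM of Spp1+ and 46.0% of Spp1- old cells. Rows of 468 repeated names were summed, which left 22866 names, of which 319 join several symbols and 22432 matched RefSeq. No 2 cells had identical columns. Old and young cells came from the sample labels. A gene is listed at 1 FPKM, levels are means of log2(FPKM + 1), which understate the change of low genes, and the named genes were the 15 highest and 15 lowest differences of genes listed in 25% of a side with the same sign of the difference in share, skipping predicted, ribosomal and small RNA genes, plus, from each list, the highest, the lowest and the 2 listed in most cells. All members of the receptor, bone matrix, age and marker lists could be named. Clk1, Ghr, Gas1, Dusp6, Sepw1, Tpm4, Ndufa4, Atp5g1, Rpl3, the lower genes past the rule and the genes shared with young cells were otherwise named after their values were seen. The members and the 47 lists were chosen with earlier results of these data known. Other cell minimums, Spp1 thresholds, pseudocounts, scalings, filters and size rules were tried. The scripts (Python 3.11.15, pandas 2.3.3, numpy 2.4.6, scipy 1.17.1) were tested on simulated data. Results for 2 genes are not reported here.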

Additional observations from a re-analysis of the deposited data

How the results depend on the processing

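No paired analysis was possible because both ages number their cells from 1 only as names and no test was made. The main counts were 100 higher and 15 lower genes in Spp1+ old cells, and 37 higher and 145 lower in Spp1+ young cells. With no minimum of genes per cell they were 53 and 1 in old cells, with 27 lower in young cells. With a minimum of 1000 genes they were 154 and 29, with 93 and 250 in young cells. With Spp1 above 0 against 0, the Spp1+ share of old cells was 62.1% in place of 34.5%. Old cells then gave 72 and 17, and 22 of the 100 higher and 0 of the 15 lower old genes still passed. Young cells gave 225 and 347, but there 64 cells were set against only 3, so 1 cell moved a share by many points. A pseudocount of 0.1 gave 24 lower in old and 58 higher in young cells, and 1 of 10 gave 15 and 1 in old cells and 1 and 43 in young cells. Rescaling gave 40 lower in old and 100 higher in young cells. Asking for 25% of cells gave 83 lower in young cells. Counting a gene as listed above 0 gave 53 higher in old cells, and at 10 FPKM gave 7 lower in old and 9 higher in young cells. Without cells of summed FPKM over 3 medians there were 153 higher in old and 218 lower in young cells. Cells at or above the median gene number gave 242 and 95 in old and 267 and 311 in young cells. Those sets held 12 Spp1+ and 17 Spp1- old cells, and 21 and 6 young cells. Cells below it gave 207 and 116 in old and 192 and 302 in young cells. Those sets held 8 and 21 old cells, and 36 and 4 young cells. In these smaller sets 1 cell moves a share by more points, which was not tested as a cause of the larger counts. A rule of 20 points gave 190 and 30 in old and 59 and 262 in young cells, and of 35 points 13 and 1 in old and 5 and 43 in young cells. With gene number as a covariate, chosen after seeing the data, there were 59 and 30 in old and 61 and 113 in young cells. Without the Spp1- cell of most genes, also chosen after seeing the data, 98 of the 100 higher and 12 of the 15 lower genes still passed. Spp1+ old cells had 121 more genes in the median, but the difference was -85.5 among cells below the median gene number. Among the single genes past the rule that were recomputed, Rbm39 turned to 0.31 with no minimum and to 0.34 at or above the median gene number. Rtn4rl1 turned to 0.055 and Clk1 to -0.70 with Spp1 above 0, and Atp5g1 to -0.25 among cells below the median gene number. Genes not past the rule changed sign in some settings too. Examples are Cdh11 (down to -0.74), Mgp (down to -0.07), Jun (up to 0.83), Nfkbia (up to 0.21) and Cdh2 (up to 0.34). The causes of these shifts were not tested. The median of all genes stayed above 0 in every setting run, from 0.02 to 0.25. The 20 Spp1+ cells limit every share, and the old cells may come from 1 or several animals.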

Other observations

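Spp1 was also listed in 5 of the 20 old cells with under 600 genes (25.0%, 8.66 to 49.1), which entered no comparison, and in 11 of 15 such young cells. Of 15 interferon response and 9 class I antigen presentation genes tested under their own names, none passed the size rule, with medians of 0.38 and 0.64 beside 0.13 for all genes. A row shared by the interferon-induced Ifi47 and Olfr56 did pass as higher, listed in 9 Spp1+ and 5 Spp1- old cells with a difference of 1.31, and so did the interferon receptor chain Ifnar2, which is on neither list (11 and 10 cells, 1.20), and Ifi27l1 (13 and 15 cells, 1.83). These 3 were named after their values were seen. Of the class I genes, B2m, the light chain of class I molecules, was listed in all 58 cells, with medians of 664 FPKM in Spp1+ and 658 FPKM in Spp1- old cells. Tap1, a peptide transporter, was listed in 5 of 20 Spp1+ and 1 of 38 Spp1- old cells, with a difference of 0.96. The 10 tested IGF axis genes had a median of -0.01, with members from -0.60 to 1.30. Igf1r, the IGF receptor, was listed in 0 of 20 Spp1+ old cells (exact interval up to 16.8%, and 15% by the limit of 3 cells) and in 12 of 38 Spp1- old cells, while its mean difference was only -0.60. Pappa, a protease that frees IGF from its binding proteins, was listed in 14 and 20 cells, with a difference of 1.30.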
